A study of Homo sapiens with 12 samples.

Results

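The genes described are the heterogeneous nuclear ribonucleoproteins (hnRNPs) and the serine- and arginine-rich (SR) splicing proteins. They were chosen by name: every symbol made of HNRNP followed by letters or digits, every SRSF symbol with a number, and GRSF1, PTBP1, PTBP2, PTBP3, TRA2A, TRA2B, PCBP1 and PCBP2. The rule took 49 of the 27685 genes in the table, namely 5 genes of the H and F family, 26 other hnRNP genes, 14 SR and TRA2 genes and 4 hnRNP pseudogenes. The 12 RNA samples came from U251, an established cell line of human glioblastoma, at passages 14 to 18. The control cells stably expressed a control short hairpin RNA (shCTRL), and the knockdown cells a hairpin against INCA1 (shINCA1), an interferon-induced long noncoding RNA for which HNRNPH1 was studied as a protein partner. Each line was left untreated or stimulated with interferon gamma (IFNγ) for 24 h, with 3 samples in each of the 4 groups. The labels give 1 hairpin a line and do not say whether the 3 samples of a group were separate cultures. The hairpin and the history of the line therefore cannot be told apart, and a p-value covers only the variation among these libraries, which could be technical.

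HnRNPs coat nascent transcripts in the nucleus and steer splice site choice, polyadenylation, export and stability, often as repressors of exons. SR proteins have RNA recognition domains and a tail rich in arginine and serine, bind exonic enhancers, recruit the early spliceosome and are regulated by phosphorylation. HNRNPH1, HNRNPH2 and HNRNPF are close relatives that bind runs of guanines through related domains, and splicing factors of this kind are often altered in glioblastoma.

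Library totals were 46525032 to 66242859 estimated counts, libraries of a group correlated at r = 0.983 to 0.987 across genes (12 pairs), and 15769 genes passed the filter on low counts. IRF1, an immediate target of IFNγ signalling, averaged 15.1 ± 0.904 CPM (estimated counts scaled to a common library total, SD, n = 3) in untreated and 936 ± 4.91 in IFNγ-treated shCTRL cells, and 11.7 ± 0.947 and 628 ± 6.65 in shINCA1 cells, which separates the treated from the untreated libraries as labelled. The table has an entry named INCA1 with 5 to 19 counts a library, but that symbol belongs to a protein-coding gene, and the hairpin's target was not checked. Of the glioma markers, VIM averaged 2208 CPM, CD44 732, SOX2 104 and NES 78.7, while GFAP (0.851 CPM) and S100B (1.28 CPM), which define astroglial cells, were near 0. All 7 of these markers differed between the lines, and their summed level was 3380 to 3523 CPM in shCTRL and 2864 to 2975 CPM in shINCA1 libraries. The 12 markers of other cell types summed to 12.6 to 14.97 CPM in shCTRL and 10.1 to 12.7 CPM in shINCA1 libraries, most of it CD68 (11.5 CPM on average), with CD3E at 0 in every library.

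The promoters of 3 members are shown because their transcripts behaved differently: HNRNPF and HNRNPH2 rose with IFNγ and HNRNPH1 did not. The windows run from 250 bases before to 50 bases after the RefSeq start on GRCh38.p14, at chr10:43408808-43409107 (minus strand) for HNRNPF, chrX:101407972-101408271 (plus strand) for HNRNPH2 and chr5:179634735-179635034 (minus strand) for HNRNPH1. Capitals mark the CCAAT box, CCAAT or its reverse complement ATTGG, to which the factor NF-Y binds.
HNRNPF: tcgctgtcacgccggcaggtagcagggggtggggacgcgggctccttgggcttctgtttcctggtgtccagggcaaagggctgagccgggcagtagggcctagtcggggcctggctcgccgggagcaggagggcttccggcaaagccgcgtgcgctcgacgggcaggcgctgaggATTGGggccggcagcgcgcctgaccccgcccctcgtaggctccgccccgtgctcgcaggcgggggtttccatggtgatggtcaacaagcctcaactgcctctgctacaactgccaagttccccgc
HNRNPH2: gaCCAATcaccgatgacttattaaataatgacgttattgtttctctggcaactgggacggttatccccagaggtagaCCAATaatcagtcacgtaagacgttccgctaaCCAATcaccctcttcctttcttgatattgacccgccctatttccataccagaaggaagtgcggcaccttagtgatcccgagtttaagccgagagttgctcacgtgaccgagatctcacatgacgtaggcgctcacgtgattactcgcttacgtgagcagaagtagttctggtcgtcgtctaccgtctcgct
HNRNPH1: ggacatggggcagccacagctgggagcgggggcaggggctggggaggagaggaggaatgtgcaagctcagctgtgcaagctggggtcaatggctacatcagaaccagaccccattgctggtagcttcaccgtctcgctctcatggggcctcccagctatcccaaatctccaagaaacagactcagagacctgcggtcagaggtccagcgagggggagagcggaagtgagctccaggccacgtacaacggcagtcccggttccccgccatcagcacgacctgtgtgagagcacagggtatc
HNRNPH2 had 3 such boxes, HNRNPF had 1 and HNRNPH1 had none. The window of HNRNPH3, which did not pass the IFNγ test in either line, also had 1. Those of SRSF4 and SRSF7, which rose with IFNγ in both lines, had none. The CCAAT letters were found in 18 of the 41 member windows held by the RefSeq table (43.9%) and in 35.7% of all 27305 windows. The core letters bound by STAT proteins, TTCNNNGAA, were in 1 member window (HNRNPR, 2.44%, against 7.88% of all windows), and those bound by interferon regulatory factors, GAAA, any 2 bases and again GAAA, were in 2 (HNRNPD and HNRNPU, 4.88%, against 3.65%), both searched on either strand. None of the 3 windows printed held either of these, nor did those of SRSF4 and SRSF7, which are described with the IFNγ response. Those letters are therefore not in these windows, which says nothing of binding elsewhere.

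Of the 49 members, 42 passed the filter. HNRNPCL1, HNRNPCL2, HNRNPCL4 and the pseudogene HNRNPKP3 were at 0 in every library, HNRNPCL3 had 0 or 1 count, SRSF12 had 0 to 23 counts and HNRNPA3P1 had 2 to 17. The tested members were among the abundant transcripts of these cells: their mean level ran from 5.33 CPM (HNRNPA1P33) to 1663 CPM (HNRNPA2B1), with a median of 324 CPM against 20.7 CPM over all tested genes. Mean levels above 100 CPM were found in 35 of the 42 members and in 2434 of all 15769 tested genes. Per kilobase of transcript, HNRNPA2B1, a binder of UAG-rich sites, led with 458 CPM per kb, followed by HNRNPK (341), HNRNPC (281), HNRNPA1 (252), HNRNPAB (248) and HNRNPH1 (245). The place of HNRNPA1 (943 CPM) is uncertain, because its pseudogene HNRNPA1P10 averaged 326 CPM and may hold reads of HNRNPA1. SRSF2, a nuclear speckle protein that binds exonic enhancers, was the highest SR gene at 221 CPM per kb. The lowest were SRSF8 (8.27 CPM per kb) and PTBP2 (3.79), the neuronal paralogue of PTBP1, which itself stood at 158 CPM per kb.

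In the H and F family, HNRNPF was higher in shINCA1 than in shCTRL cells, and HNRNPH1, HNRNPH2 and HNRNPH3 were lower. This held with and without IFNγ. HNRNPF, a binder of guanine runs near alternative exons, measured 375, 369 and 384 CPM in the 3 untreated shCTRL libraries and 448, 457 and 463 CPM with IFNγ. In shINCA1 cells it measured 526, 519.9 and 528 CPM untreated and 636, 624 and 631 CPM with IFNγ. The 4 groups did not overlap for HNRNPF, and the order from lowest to highest was untreated shCTRL, IFNγ shCTRL, untreated shINCA1 and IFNγ shINCA1. The difference between the lines was 0.48 ± 0.02 (log2 fold change ± SE) without IFNγ and 0.47 ± 0.02 with it (edgeR quasi-likelihood test, Benjamini-Hochberg adjusted p = 2.78e-09 and 3.44e-09). In a bulk sample, a change in the number of cells that express a gene and a change in the RNA each cell holds cannot be told apart.

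HNRNPH1, on average the most abundant gene of the family and the studied partner of the targeted RNA, measured 578, 576 and 576 CPM in untreated shCTRL libraries and 537, 519 and 535 CPM in untreated shINCA1 libraries. With IFNγ it measured 559, 554 and 566 CPM in shCTRL and 529, 530.3 and 536 CPM in shINCA1 cells. The libraries of the lines did not overlap under either condition, but the difference was small, at -0.12 ± 0.02 on the log2 scale untreated and -0.07 ± 0.02 with IFNγ (edgeR adjusted p = 0.000148 and 0.00502). The call with IFNγ was lost with upper-quartile scaling, where the change was -0.04 with an adjusted p of 0.116.

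HNRNPH2, an X-linked gene whose protein is nearly the same as that of HNRNPH1, differed more. It measured 118, 123 and 125 CPM in untreated shCTRL libraries and 83.9, 86.3 and 88.0 CPM in untreated shINCA1 libraries. With IFNγ the values were 143, 147 and 142 CPM in shCTRL and 92.8, 93.0 and 97.7 CPM in shINCA1 cells. The highest shINCA1 library was below the lowest shCTRL library, and the log2 difference was -0.50 ± 0.03 untreated and -0.61 ± 0.03 with IFNγ (edgeR adjusted p = 1.2e-07 and 2.31e-08). A separate entry for a readthrough transcript, RPL36A-HNRNPH2, held 183 to 1021 counts a library and shares sequence with HNRNPH2, so reads may be split between them. The sum of both entries averaged 134 ± 8.79 CPM (SD, n = 3) in untreated shCTRL and 97.3 ± 2.14 CPM in untreated shINCA1 cells, and the groups of this sum did not overlap either. With IFNγ the summed entries reached 156 ± 3.32 CPM (shCTRL) and 103.0 ± 0.86 CPM (shINCA1), so that its response in shINCA1 cells was 0.08 on the log2 scale (of means, not tested), smaller than that of the HNRNPH2 entry alone.

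HNRNPH3, a shorter family member that lacks one of the RNA-binding domains, measured 232, 246 and 244 CPM in untreated shCTRL and 207, 209 and 210.0 CPM in untreated shINCA1 libraries. With IFNγ the values were 223, 239 and 251 CPM and 209.6, 205 and 207 CPM. It was lower in shINCA1 cells, with log2 differences of -0.21 ± 0.04 and -0.20 ± 0.04 without and with IFNγ (edgeR adjusted p = 0.0006 and 0.000893). GRSF1, a binder of G-rich RNA that acts mainly in mitochondria, went the other way, with 299, 310.1 and 309 CPM in untreated shCTRL and 336, 348 and 346 CPM in untreated shINCA1 libraries. With IFNγ it measured 308, 299 and 304 CPM in shCTRL and 342, 328 and 347 CPM in shINCA1 cells, and the log2 differences were 0.16 ± 0.03 and 0.16 ± 0.03 (edgeR adjusted p = 0.000273 and 0.000328). All 5 genes of the family thus passed the test in both comparisons of the lines, beside 56.9% of all tested genes called in the untreated and 58.9% in the IFNγ comparison.

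**Figure D1:**
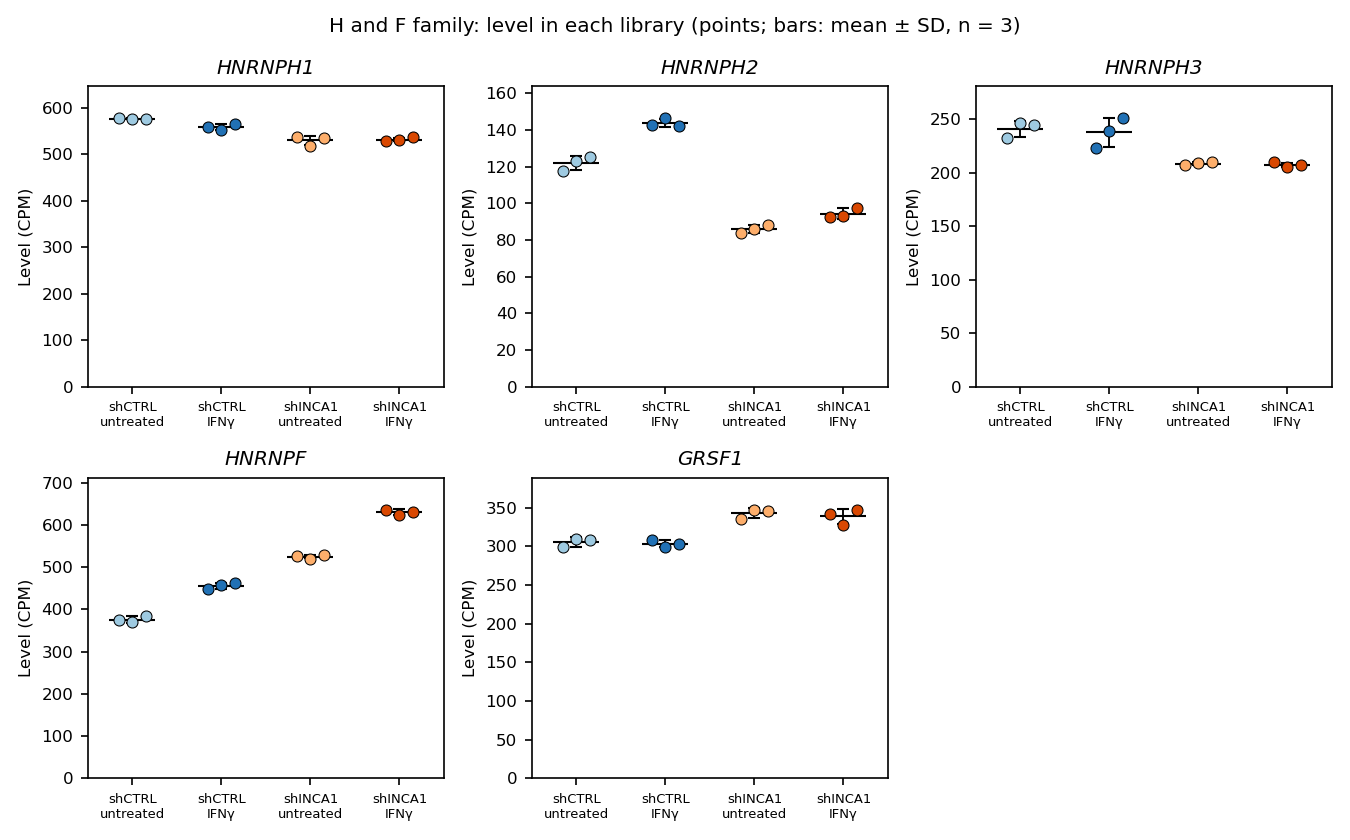
Level of the 5 genes of the H and F family (y axis, CPM from 0) in each of the 12 libraries (points), with the mean ± SD of the 3 libraries of a group (bars). HNRNPF steps up over the 4 groups from 369 to 636 CPM, HNRNPH2 is higher with IFNγ in each line and lower in shINCA1 cells, and HNRNPH1 stays between 519 and 578 CPM.

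The make-up of the family's RNA differed accordingly. Per transcript length, HNRNPH1 was 46.04 ± 0.524% of the summed HNRNPH1, HNRNPH2, HNRNPH3 and HNRNPF level in untreated shCTRL cells (SD, n = 3) and HNRNPF was 26.2 ± 0.422%. In untreated shINCA1 cells HNRNPH1 was 41.8 ± 0.377% and HNRNPF 36.02 ± 0.101%, and with IFNγ HNRNPF, at 40.1 ± 0.247%, exceeded HNRNPH1, at 38.8 ± 0.251%. In IFNγ-treated shCTRL cells the shares were 42.3 ± 0.603% for HNRNPH1 and 30.04 ± 0.101% for HNRNPF. HNRNPH2 made up 9.51% and 10.6% in untreated and treated shCTRL cells and 6.61% and 6.73% in shINCA1 cells. The summed level itself was 559 ± 5.22 and 591 ± 10.3 CPM per kb in shCTRL and 567 ± 5.89 and 612 ± 4.24 CPM per kb in shINCA1 cells. Shares of a sum are tied to each other, and an increase in 1 gene lowers the shares of the rest.

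IFNγ raised HNRNPF and HNRNPH2 but no other gene of the family. In shCTRL cells 8 of the 42 tested members rose and 2 fell, where 9.72% of all tested genes rose and 7.51% fell. That is 23.8% of the members and 17.2% of all tested genes, and at an unadjusted p under 0.05 the count was 13 members (28.2% of all tested genes). The share of all genes depends on how many weakly expressed genes are tested. With a filter of 5 CPM in 3 samples, 10 members were again called, beside 1455 raised and 1123 lowered of 11342 genes. The response of HNRNPF was 0.28 ± 0.02 on the log2 scale in shCTRL and 0.26 ± 0.02 in shINCA1 cells (edgeR adjusted p = 1.29e-06 and 3.51e-06), and it passed the test with each library left out and under every other setting tried. HNRNPH2 rose by 0.24 ± 0.03 in shCTRL cells and by 0.14 ± 0.03 in shINCA1 cells (edgeR adjusted p = 0.000379 and 0.0271). The call of HNRNPH2 in shINCA1 cells was lost when any shINCA1 library but the first treated one, or the first treated shCTRL library, was left out (adjusted p = 0.0508 to 0.177), and with 4 of the other settings at the same threshold. HNRNPH1 changed by -0.04 ± 0.02 and 0.00 ± 0.02 in shCTRL and shINCA1 cells (edgeR adjusted p = 0.155 and 0.954), with 95% intervals of -0.08 to -0.00 and -0.04 to 0.05. The decrease of HNRNPH1 in shCTRL cells passed the test with upper-quartile scaling alone (-0.09, adjusted p = 0.00393). With that scaling the median change over all tested genes was -0.06. HNRNPH3 (-0.02 and -0.01) and GRSF1 (-0.01 and -0.02) did not pass in either line.

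Among the SR genes, SRSF2, SRSF4 and SRSF7 rose with IFNγ in both lines. SRSF2 measured 378, 384 and 381 CPM in untreated and 428, 442 and 445 CPM in treated shCTRL libraries, a change of 0.20 ± 0.04. In shINCA1 cells it measured 420.1, 369.5 and 400.1 CPM untreated and 455, 456 and 446 CPM with IFNγ, a change of 0.19 ± 0.04 (edgeR adjusted p = 0.00269 in shCTRL and 0.00693 in shINCA1 cells). The untreated shINCA1 libraries were the most spread, but every treated library was above them. SRSF4, one of the larger SR proteins, measured 157, 160.3 and 161 CPM and then 178, 184 and 190.1 CPM in shCTRL cells, and 151, 154 and 149.7 CPM and then 165, 165 and 164 CPM in shINCA1 cells. Its groups did not overlap in either line, and the changes were 0.20 ± 0.03 and 0.12 ± 0.03 (edgeR adjusted p = 0.000293 and 0.0204), the latter lost without any of 5 shINCA1 libraries (adjusted p = 0.0658 to 0.101) and with DESeq2 size factors, no filter, only the groups compared or upper-quartile scaling (0.0536 to 0.0707). SRSF7, which carries a zinc knuckle and takes part in RNA export, measured 223, 233 and 225 CPM untreated and 245, 240.5 and 249 CPM treated in shCTRL cells. In shINCA1 cells the values were 234, 229 and 233 and 260.0, 253 and 254 CPM, and the changes were 0.11 ± 0.03 and 0.14 ± 0.03 (edgeR adjusted p = 0.0126 and 0.0041). The SRSF7 call in shCTRL cells was lost without 4 of the shCTRL libraries (adjusted p = 0.0507 to 0.0804) and with upper-quartile scaling (0.148).

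The other calls of the IFNγ response were all in shCTRL cells. TRA2A, an SR-like activator of exon inclusion, measured 70.0, 76.7 and 75.6 CPM untreated and 81.7, 88.3 and 84.1 CPM with IFNγ (0.19 ± 0.04, edgeR adjusted p = 0.00785), a call that was lost without the second treated library (adjusted p = 0.0534). HNRNPC, which competes with U2AF2 for uridine tracts, rose by 0.10 ± 0.02, and HNRNPK, a KH-domain protein that binds cytidine-rich RNA, by 0.09 ± 0.02 (edgeR adjusted p = 0.0155 and 0.00829). These 2 small changes lost their calls without 5 and 3 of the shCTRL libraries, and with upper-quartile scaling (adjusted p = 0.206 and 0.187). SRSF8 fell, from 47.2, 42.3 and 44.6 CPM to 36.1, 37.1 and 36.7 CPM (-0.29 ± 0.05, edgeR adjusted p = 0.00104), and the groups did not overlap. HNRNPUL2, a relative of HNRNPU, fell from 236, 247 and 245 CPM to 224, 218 and 219.7 CPM (-0.14 ± 0.03, edgeR adjusted p = 0.00915). Its readthrough entry HNRNPUL2-BSCL2 ranged from 0 to 26.5 CPM. With both entries summed the means were 249 ± 3.12 and 241 ± 4.38 CPM (SD, n = 3). That is a log2 change of -0.05 (of means, not tested), smaller than that of the HNRNPUL2 entry alone.

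In shINCA1 cells 5 of the 42 members rose with IFNγ and none fell, beside 6.13% and 2.95% of all tested genes. That is 11.9% of the members and 9.08% of all tested genes, and at an unadjusted p under 0.05 the count was 11 members (19.4% of all tested genes). With a filter of 5 CPM in 3 samples, 5 members were again called, beside 848 raised and 571 lowered of 11342 genes. All 5 (HNRNPF, HNRNPH2, SRSF2, SRSF4 and SRSF7) were among the 8 raised in shCTRL cells, which is 62.5% of the 8 and 100% of the 5. The untreated and treated libraries did not overlap for 17 members in shCTRL cells and 12 in shINCA1 cells, where the shares of all tested genes were 33.4% and 24.9%. The median change of the members was 0.03 in shCTRL and 0.04 in shINCA1 cells on the log2 scale, against -0.01 and 0.00 over all tested genes. With upper-quartile scaling the split in shCTRL cells moved from 8 raised and 2 lowered to 5 and 5. Over all tested genes it moved the same way, from 1532 raised and 1184 lowered to 1201 and 1970.

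**Figure D2:**
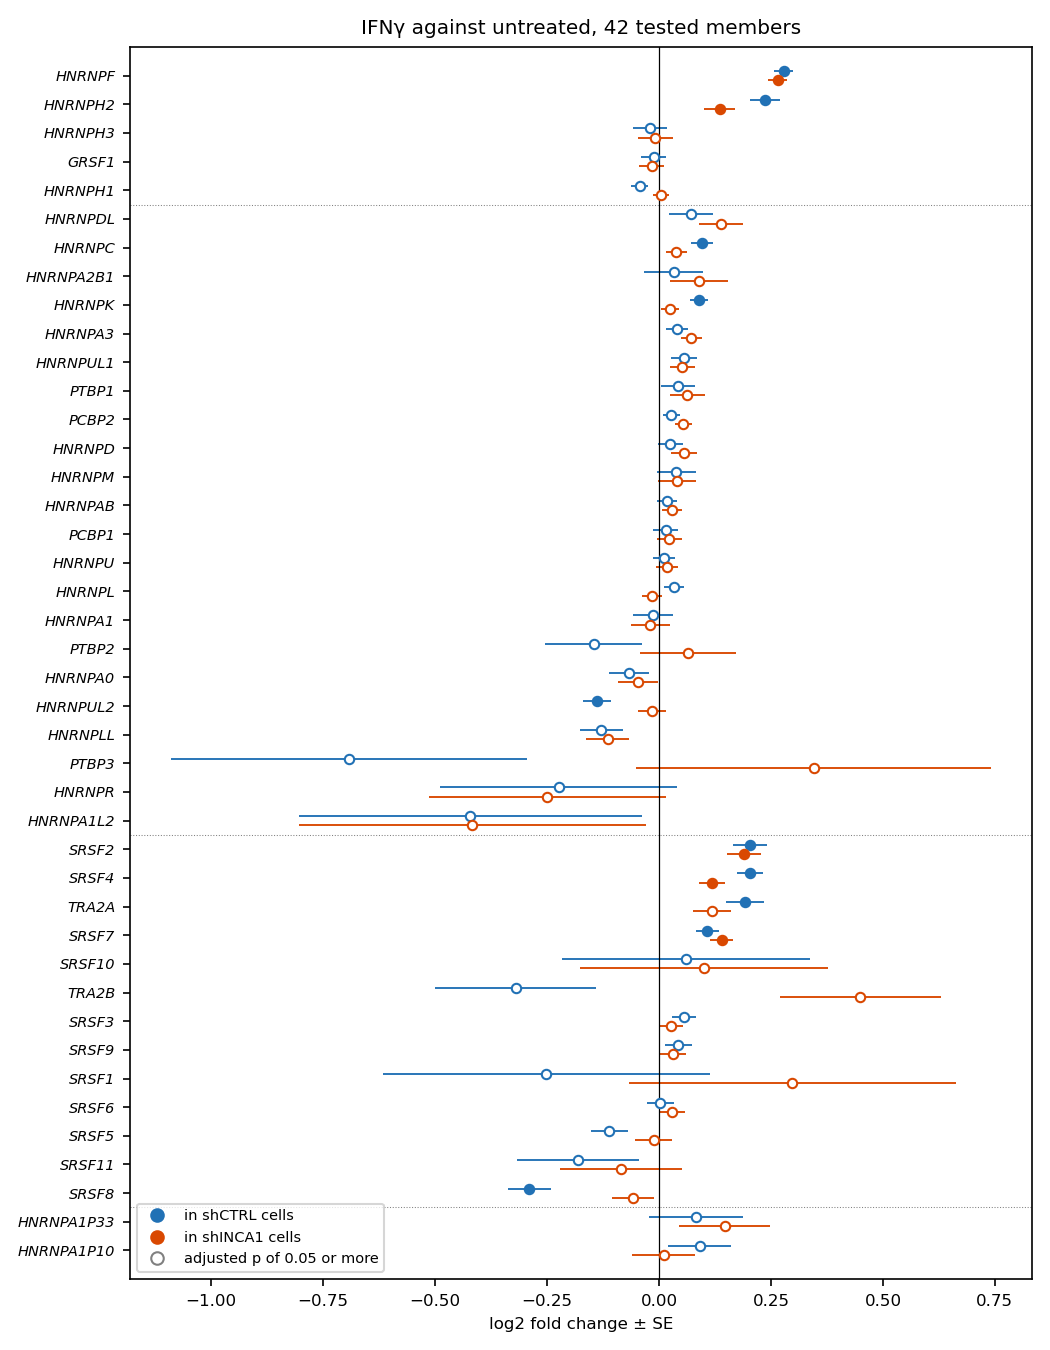
Response to IFNγ (x axis, log2 fold change of treated against untreated ± SE) of the 42 tested members in shCTRL (blue) and shINCA1 cells (orange), ordered within the H and F family, the other hnRNPs, the SR and TRA2 genes and the pseudogenes. Filled points have an edgeR adjusted p under 0.05; HNRNPF (0.28 and 0.26), SRSF2, SRSF4, SRSF7 and HNRNPH2 are filled in both lines, and the widest bars belong to PTBP3, SRSF1, HNRNPA1L2, SRSF10 and HNRNPR.

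The response to IFNγ was also compared between the lines, as the difference of the responses. No member passed that test in either direction (edgeR, 0.615% of all tested genes called higher and 1.1% lower in shINCA1, 1.71% in all), and DESeq2 and limma-voom likewise called 0. At an unadjusted p under 0.05 the counts were 4 members with edgeR, 6 with DESeq2 and 7 with limma-voom, beside 11.4% of all tested genes with edgeR. For HNRNPF the difference was -0.01 ± 0.03 on the log2 scale with a 95% interval of -0.08 to 0.05, and for HNRNPH1 0.05 ± 0.03 with an interval of -0.01 to 0.11. HNRNPH2 had -0.10 ± 0.05, with an interval of -0.21 to 0.00. The 4 members at an unadjusted p under 0.05 were SRSF8 (0.23 ± 0.07), HNRNPUL2 (0.12 ± 0.04), HNRNPK (-0.06 ± 0.03) and TRA2B (0.77 ± 0.25), with edgeR adjusted p of 0.146, 0.27, 0.407 and 0.224. With its readthrough entry added, HNRNPUL2 had nearer responses, -0.05 in shCTRL and -0.02 in shINCA1 cells (log2 of means, not tested). SRSF8 had 31.6, 31.5 and 30.5 CPM in untreated and 30.7, 30.9 and 28.4 CPM in treated shINCA1 cells, overlapping ranges, where the shCTRL ranges did not overlap. With the second untreated shCTRL library left out, 1 member was called.

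Over all 42 tested members, the H and F family included, the lines differed in about the same share of members as of all tested genes. That share depends on how many weakly expressed genes are tested. With a filter of 5 CPM in 3 samples, 26 members were called in each condition. Beside them, 3878 of 11342 genes were higher and 3627 lower in shINCA1 cells untreated, and 3840 and 3913 with IFNγ. The members' median absolute log2 change was 0.13 untreated and 0.16 with IFNγ, against 0.32 and 0.33 over all tested genes. The members were more abundant (median 324 CPM, against 20.7), and genes of like level were not compared. Without IFNγ 25 of the 42 members passed the test (59.5%, against 56.9% of all tested genes), 7 higher in shINCA1 cells (27.4% of all genes) and 18 lower (29.5%). At an unadjusted p under 0.05 the count was 26 members (60.9% of all genes). With IFNγ 26 passed (61.9%, against 58.9%), 9 higher (28.7%) and 17 lower (30.2%), and at an unadjusted p under 0.05 the count was 28 (63% of all genes). The calls were shared between the conditions by 6 members that were higher (85.7% of the 7 and 66.7% of the 9) and 17 that were lower (94.4% of the 18 and 100% of the 17). The libraries of the lines did not overlap for 27 members untreated and 31 with IFNγ, beside 62.8% and 66.5% of all tested genes. The summed glioma markers given above, most of it VIM, were lower in every shINCA1 library, although 2 of the 7 (EGFR, 0.66 and 0.75, and CD44, 0.43 and 0.53) were higher in shINCA1 cells and 5 lower. Of the 4 tested markers of other cell types, CD68 was lower (-0.42 and -0.41), CDH5, at 0 to 0.768 CPM on average by group, was called higher, and the other 2 did not pass the test. The part of these markers in the differences of the members was not tested. The comparisons of the lines use the same libraries as the comparisons of treatment.

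HNRNPUL1, a relative of HNRNPU with a role in the DNA damage response, measured 671, 649.6 and 646 CPM in untreated shCTRL and 499, 465 and 493 CPM in untreated shINCA1 libraries. With IFNγ it measured 682, 673 and 689.5 CPM and 500.2, 517 and 495 CPM. The lines were far apart in both conditions, with log2 differences of -0.43 ± 0.03 and -0.43 ± 0.03 (edgeR adjusted p = 1.05e-07 and 9.47e-08). SRSF9, a small SR protein, measured 161, 159.7 and 164 CPM in untreated shCTRL and 130.4, 125 and 126 CPM in untreated shINCA1 cells. With IFNγ it measured 163, 168 and 169 CPM and 134, 127 and 129 CPM, again without overlap (-0.35 ± 0.03 and -0.36 ± 0.03, edgeR adjusted p = 1.06e-06 and 7.66e-07). HNRNPA3, a paralogue of HNRNPA1, measured 605, 629 and 629 CPM in untreated shCTRL cells and 488, 502 and 491 CPM in untreated shINCA1 cells. With IFNγ it had 622, 643 and 649.9 CPM and 512, 526 and 519.6 CPM, all shINCA1 libraries lying below all shCTRL libraries (-0.33 ± 0.02 and -0.30 ± 0.02, edgeR adjusted p = 2.07e-07 and 4.97e-07).

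SRSF8, a retrogene relative of SRSF2 at a low level, was lower in shINCA1 cells, with log2 differences of -0.52 ± 0.05 untreated and -0.29 ± 0.05 with IFNγ (edgeR adjusted p = 1.74e-06 and 0.000246). HNRNPDL, a paralogue of HNRNPD, measured 263, 278 and 291 CPM in untreated shCTRL and 220.0, 235 and 216 CPM in untreated shINCA1 libraries. With IFNγ it measured 296, 290.1 and 287 CPM and 249, 229.9 and 259 CPM, and the differences were -0.31 ± 0.05 and -0.24 ± 0.05 (edgeR adjusted p = 0.000187 and 0.00115). Its ranges did not overlap in either condition. The pseudogene HNRNPA1P33 was higher in shINCA1 cells, with 3.94, 4.05 and 3.76 CPM against 6.76, 6.17 and 5.95 CPM untreated (0.68 ± 0.10) and 3.76, 4.06 and 4.60 CPM against 7.81, 6.75 and 6.31 CPM with IFNγ (0.75 ± 0.10). As a copy of HNRNPA1 it may take up reads of its parent, whose own level differed by -0.00 ± 0.04 and -0.01 ± 0.04, so this value is uncertain.

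The remaining calls between the lines ran in both directions. HNRNPA2B1 (0.22 untreated and 0.27 with IFNγ), SRSF6 (0.20 and 0.23) and HNRNPAB (0.12 and 0.14) were higher in shINCA1 cells in both conditions. The untreated call of HNRNPA2B1 was lost without the first untreated shINCA1 library (adjusted p = 0.0677). TRA2A was called untreated (0.14) and missed the threshold with IFNγ (0.06), and SRSF5 (0.18), PCBP2 (0.06) and TRA2B (0.46) were called with IFNγ alone. Lower in both conditions were HNRNPUL2, SRSF3, PCBP1, HNRNPLL, HNRNPU, HNRNPC, HNRNPK, HNRNPL and SRSF4, with untreated log2 differences from -0.21 (HNRNPUL2) to -0.08 (SRSF4). With its readthrough entry added, HNRNPUL2 differed by -0.13 untreated and -0.10 with IFNγ (log2 of means, not tested). HNRNPA0 (-0.12) was called untreated alone. Many of these calls rest on few libraries or on the setting. Untreated, the call of SRSF4 was lost without 5 libraries and with DESeq2, its size factors, either other filter, only the groups compared and upper-quartile scaling. That of HNRNPA0 was lost without 4 libraries and with both filters, only the groups compared and upper-quartile scaling. HNRNPLL lost its untreated call without 3 libraries and with both filters, and TRA2A without 3 libraries. With IFNγ the call of HNRNPLL was lost without 10 of the 12 libraries and with both filters, only the groups compared and upper-quartile scaling. HNRNPUL2 lost its call with IFNγ without 6 libraries and with the 5 CPM filter, only the groups compared and upper-quartile scaling. PCBP2 lost it without 2 and TRA2B without 6 libraries, and both with no filter.

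**Figure D3:**
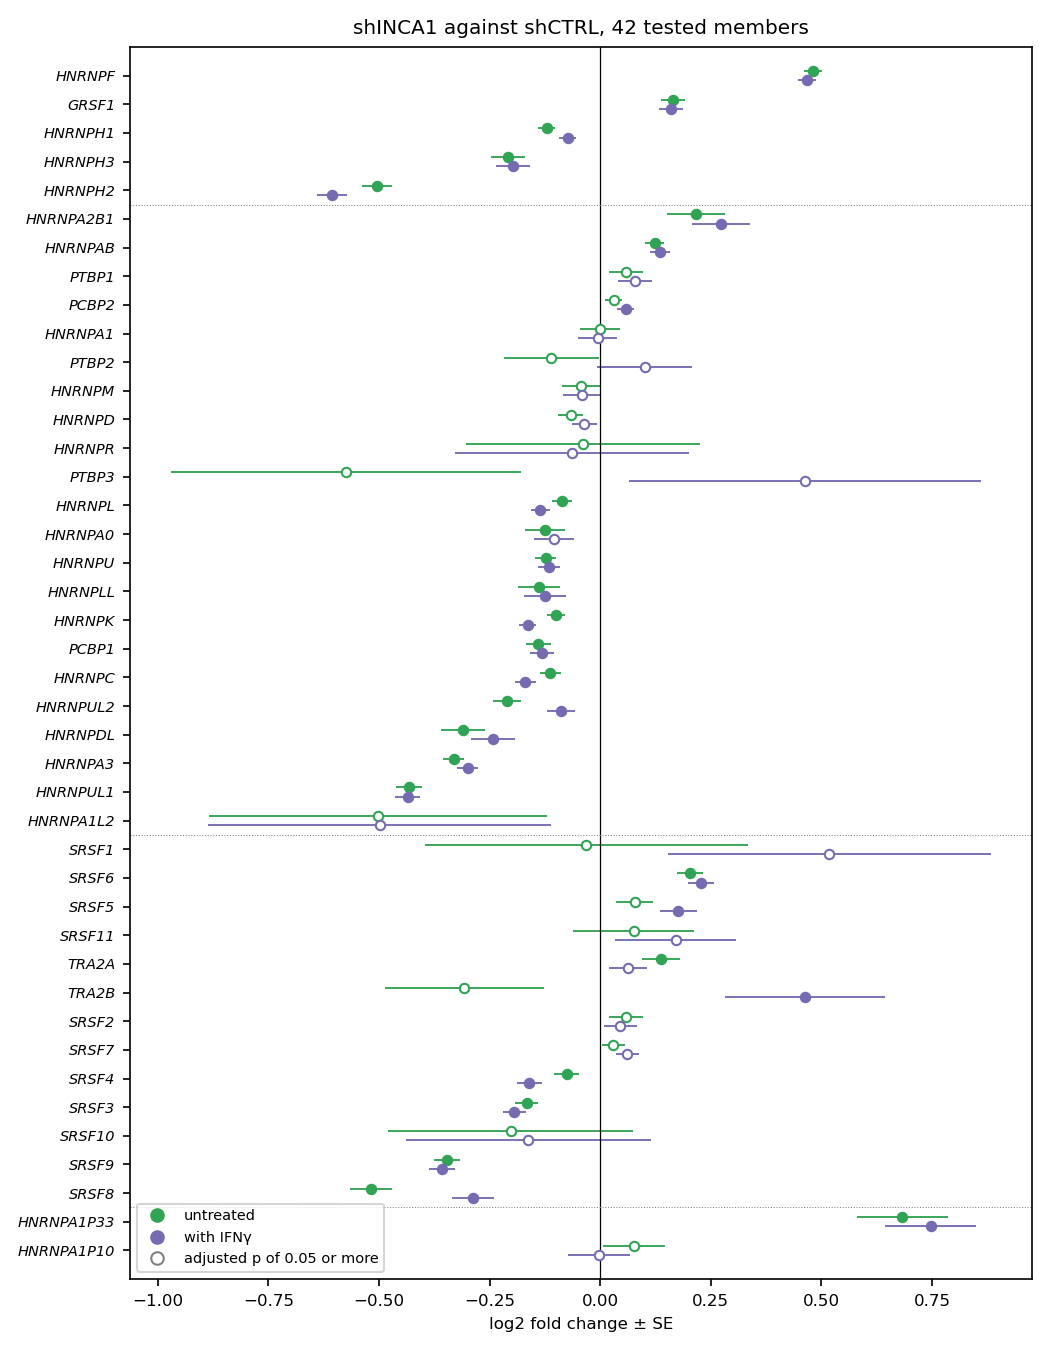
Difference between the lines (x axis, log2 fold change of shINCA1 against shCTRL ± SE) of the 42 tested members, untreated (green) and with IFNγ (purple), grouped as in the plot of the IFNγ response. Filled points have an edgeR adjusted p under 0.05; HNRNPF (0.48 and 0.47) and HNRNPH2 (-0.50 and -0.61) are the family members farthest from 0, on opposite sides.

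Since lines can differ in whole chromosome segments, each member was set beside the median of the 10 tested genes on each side of it on the chromosome. HNRNPF, on chromosome 10, had a log2 difference of 0.48 untreated where its neighbours had a median of 0.12. HNRNPH2, on chromosome X, had -0.50 beside -0.24. HNRNPH1 (-0.12 beside 0.03), HNRNPH3 (-0.21 beside 0.00), HNRNPUL1 (-0.43 beside -0.06) and SRSF9 (-0.35 beside 0.04) likewise stood below their neighbours, while GRSF1 had 0.16 beside 0.15. With IFNγ HNRNPH3 was nearer to its neighbours (-0.20 beside -0.12). HNRNPH1 (-0.07 beside 0.06), HNRNPUL1 (-0.43 beside -0.10) and SRSF9 (-0.36 beside 0.02) again stood below theirs. For 7 of the 25 members called untreated the sign turned once the neighbours' median was subtracted, and for 8 of the 26 called with IFNγ. SRSF3, which promotes messenger RNA export as well as splicing, was at -0.17 on chromosome 6 while its neighbours had a median of -0.64. HNRNPA3 (-0.33 beside -0.40), HNRNPL (-0.09 beside -0.37) and TRA2A (0.14 beside 0.44) also moved less than the genes around them. Whether copy number differs between the lines was not tested.

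**Figure D4:**
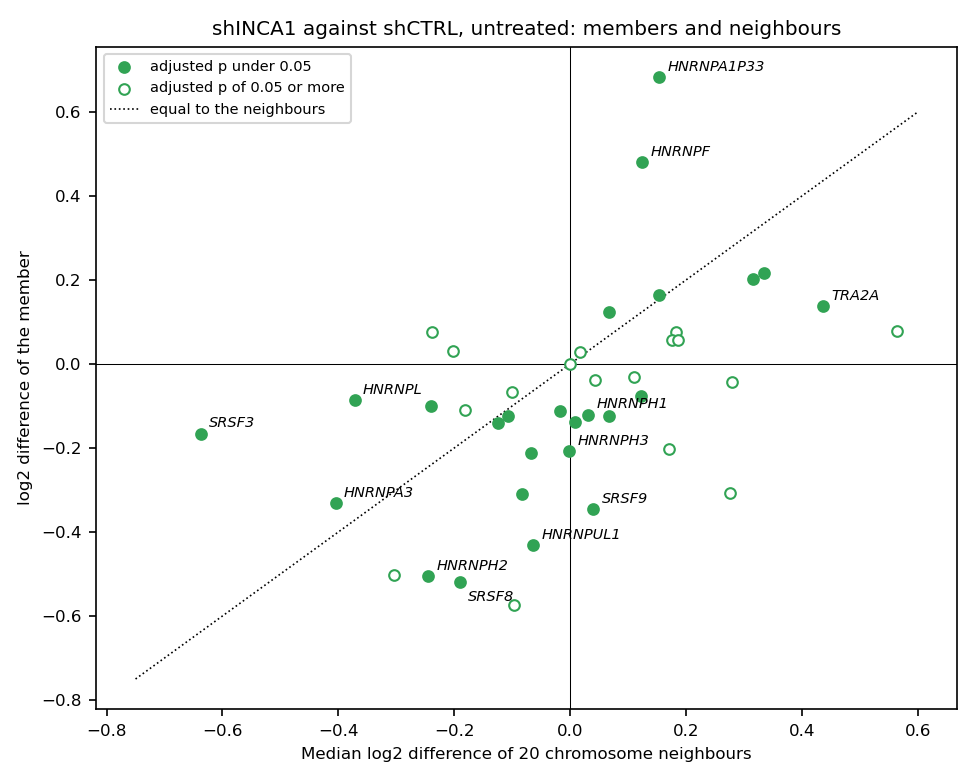
Untreated shINCA1 against shCTRL: log2 difference of each tested member with a chromosome position (y axis) against the median log2 difference of its 20 neighbouring tested genes (x axis), with a dotted line where both are equal. HNRNPF lies above the line (0.48 beside 0.12) and HNRNPUL1 and SRSF9 below it, while SRSF3 (-0.17 beside -0.64) lies above it among genes that were lower.

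For 6 members the libraries of a group were far apart, so that group means describe them poorly. Their highest library exceeded the lowest of the same group by more than 1.5 times in at least 1 group. Among genes averaging 10 CPM or more this held for 6 of 41 members (14.6%) and for 5.33% of all 9788 genes. SRSF1, the founding SR protein, measured 277, 628 and 626 CPM in untreated and 375, 277 and 634 CPM in treated shCTRL libraries. In shINCA1 cells it measured 607, 604 and 288 CPM untreated and 614, 613 and 616 CPM with IFNγ. Most libraries were near 600 CPM and 3 near 280 CPM, in groups of both lines, and treated shINCA1 cells were the group where all 3 libraries matched.

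PTBP3, a relative of the polypyrimidine tract repressor PTBP1, measured 61.5, 108 and 115 CPM and 95.2, 40.6 and 40.3 CPM in untreated and treated shCTRL libraries. In shINCA1 cells the values were 30.2, 81.4 and 78.9 CPM and 81.5, 79.7 and 81.1 CPM, so that the lowest library held 30.2 CPM and the highest 115 CPM, both untreated. HNRNPR, a close relative of SYNCRIP, measured 293, 469 and 474 CPM and 464, 291 and 303 CPM in untreated and treated shCTRL libraries, and 453, 291 and 458 CPM and 453, 275 and 284 CPM in shINCA1 libraries. All 4 groups of HNRNPR held libraries below 310 CPM and above 450 CPM, with none between. TRA2B, the paralogue of TRA2A, measured 316, 194 and 314 CPM and 213, 219 and 227 CPM in shCTRL cells, and 285, 193 and 188 CPM and 307, 302 and 301 CPM in shINCA1 cells. Its call between the treated lines (0.46 ± 0.18, edgeR adjusted p = 0.0438) rests on groups that were even inside, and the untreated groups of both lines were split.

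HNRNPA1L2, a retrocopy of HNRNPA1, measured 36.9, 16.6 and 35.0 CPM and 33.9, 15.8 and 16.7 CPM in shCTRL cells, and 32.9, 14.5 and 15.1 CPM and 14.9, 15.7 and 16.2 CPM in shINCA1 cells. SRSF10, which represses splicing when dephosphorylated, measured 83.2, 151 and 122 CPM and 123, 97.9 and 151 CPM in shCTRL cells, and 91.4, 137 and 80.7 CPM and 77.2, 108 and 146 CPM in shINCA1 cells. The second treated shCTRL library was below the median of the 12 libraries for all 6 genes and the third untreated shCTRL library above it for all 6, while each of the other libraries was below it for some and above it for others. The biological coefficient of variation of these genes was 15.8 to 33.5%, against 4.43 to 12.3% (median 4.82%) in the other 35 and a median of 5.70% over all genes at that level. Of the 6, only TRA2B was called in any comparison (the lines with IFNγ), and without them the counts of raised and lowered members were the same in all comparisons but that one. Whether these uneven levels arose in the cells or in the counting of transcripts was not tested.

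**Figure D5:**
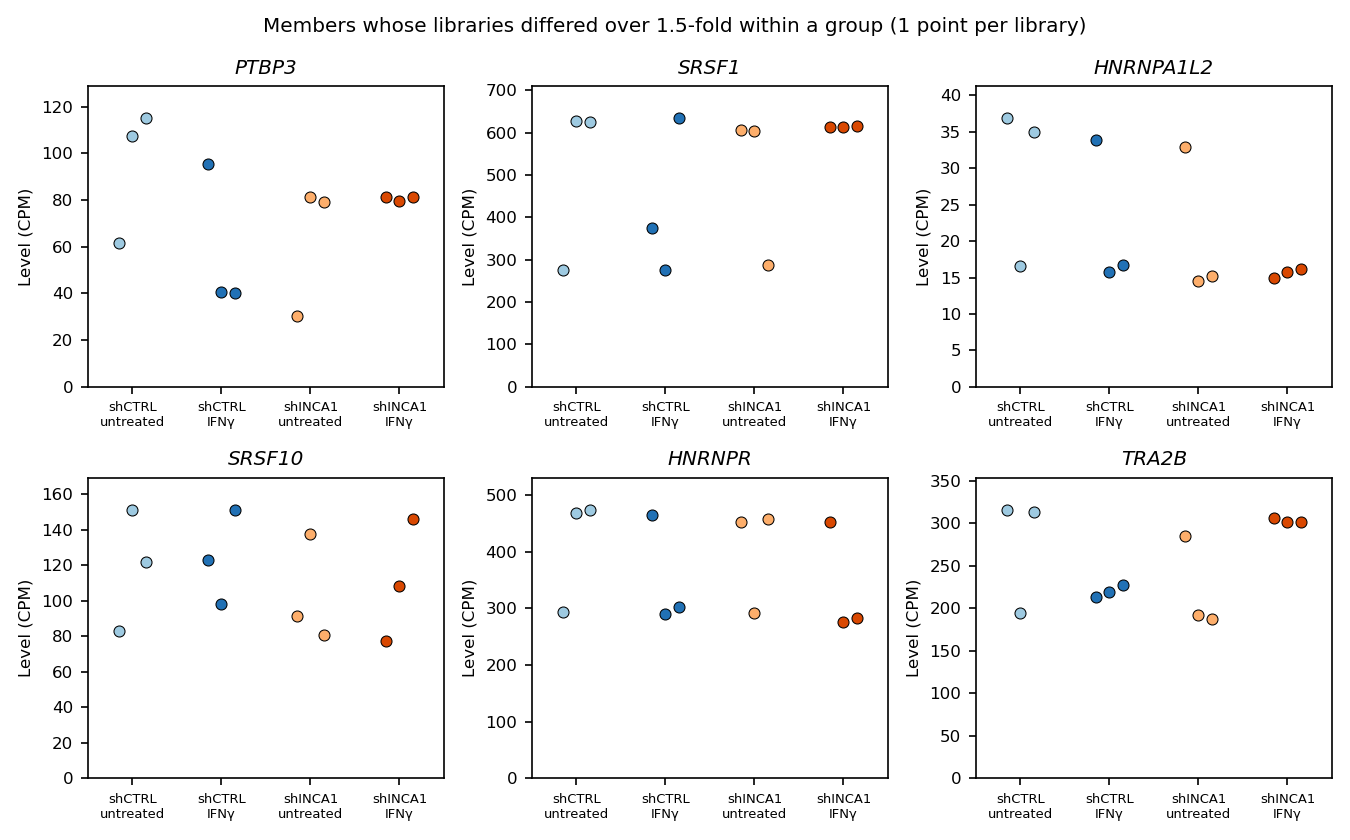
Level (y axis, CPM from 0) of PTBP3, SRSF1, HNRNPA1L2, SRSF10, HNRNPR and TRA2B in each library (1 point per library) of the 4 groups. SRSF1 libraries sit near 280 or 600 CPM apart from 1 at 375 CPM, and HNRNPR libraries either below 310 or above 450 CPM, in every group where they split.

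The other genes of splicing were taken from lists of known members of each group, and their counts stand beside the shares of all tested genes, 9.72% raised and 7.51% lowered in shCTRL and 6.13% and 2.95% in shINCA1 cells. Of 12 tested hnRNP-related genes, 1 fell with IFNγ in shCTRL cells (PCBP4, -0.23, a call lost without 3 libraries) and 1 rose in shINCA1 cells (CELF1, 0.42). Of 10 kinases, phosphatases and importers of SR proteins none passed with edgeR in either line, with 1 and 2 at an unadjusted p under 0.05. Of 40 core spliceosome genes 7 rose with IFNγ in shCTRL cells and 1 in shINCA1 cells, and none fell (17.5% and 2.5% called, against 17.2% and 9.08% of all tested genes). DDX23, a helicase of the U5 particle, rose in both lines, by 0.74 ± 0.03 and 0.46 ± 0.03 (edgeR adjusted p = 2.43e-09 and 3.12e-07). DHX15 (0.15) and PRPF3 (0.15) came next in shCTRL cells, and the PRPF3 call was lost without 5 libraries (adjusted p = 0.0509 to 0.142) and with upper-quartile scaling (0.113). Of 20 other splicing regulators 6 rose and 3 fell in shCTRL cells, and 2 rose in shINCA1 cells. The 3 that fell were MBNL2 (-0.69), NOVA2 (-0.56) and KHDRBS3 (-0.35), and the 2 that rose in shINCA1 cells were TIA1 (0.26) and RBM25 (0.17).

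Between the untreated lines, where 27.4% of all tested genes were higher and 29.5% lower in shINCA1 cells, 8 of the 40 core spliceosome genes were higher and 16 lower (60% called, against 56.9%), led by SNRPC (-0.82), CDC5L (-0.73) and SF3B5 (-0.70). Of the 10 SR protein kinases and related genes 1 was higher and 6 were lower, with PRPF4B (-0.52), SRPK1 (-0.50) and SRPK2 (-0.45) the farthest. The 12 hnRNP-related genes had 2 higher and 6 lower, led by SYNCRIP (-0.57), and the 20 regulators 3 higher and 6 lower, led by QKI (-0.61), RBM25 (0.53) and KHDRBS3 (-0.49). Several of these lie on chromosome 6. All 8 tested splicing genes placed there (SRSF3, SNRPC, CDC5L, SF3B5, SRPK1, SYNCRIP, QKI and DHX16) were lower in shINCA1 cells in both comparisons of the lines. PRPF4B was not placed on any chromosome in this step, so it is not counted, wherever it lies. Of all 751 tested genes of that chromosome 71.5% were lower untreated (median log2 difference -0.60) and 71.9% with IFNγ (median -0.62). With IFNγ, beside 28.7% and 30.2% of all tested genes, the counts of higher and lower genes were 6 and 15 for the core spliceosome, 1 and 4 for the kinases and importers, 3 and 5 for the hnRNP-related genes, and 6 and 8 for the regulators.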

How the data were processed

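RNA was extracted with RNeasy columns, made into TruSeq stranded mRNA libraries and sequenced on a NovaSeq, per the labels' protocols. FastQC, Trimmomatic, HISAT2, StringTie and the hg19 build are named in the submitters' processing notes, without versions. Neither the counting step nor how it treated strand is stated in what was used here. The deposited table of the authors holds whole-number estimated counts per gene, in which low values pile up at 3 (5790 times) over 2 (2186) and 4 (1317), so they are not plain read counts. Reads of paralogues, pseudogenes and overlapping genes may be split between entries.

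The members and all gene lists were chosen with earlier results of these data known. Genes passing filterByExpr were fitted in 1 model over the 12 samples with edgeR 4.0.16 (R 4.3.3, TMM scaling, quasi-likelihood test, two-sided), giving 5 comparisons with Benjamini-Hochberg adjustment over 15769 genes at a threshold of 0.05. Levels are CPM with TMM scaling. Levels per kb use the GENCODE MANE Select transcript length. Neighbours are the 10 tested genes on each side in RefSeq order. The genes named are the H and F family, every member past the threshold, with values by library for up to 8 per comparison, and the 3 largest changes of each other list among genes averaging 1 CPM. Of the 6 members with uneven libraries only TRA2B falls under that rule, and all 6 were chosen after their values were seen. Alternatives were DESeq2 1.42.0, limma-voom (limma 3.58.1), other scaling, filters and thresholds, only the groups compared, a replicate block and each library left out. The fit was tested on simulated data.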

Additional observations from a re-analysis of the deposited data

Results flagged for a closer look

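None of the hnRNP and SR genes differed between the lines in the response to IFNγ by the test of the difference, but 3 genes of the other splicing lists did, where 1.71% of all tested genes were called. DDX23 averaged 138 ± 1.37 and 231 ± 2.11 CPM (SD, n = 3) in untreated and treated shCTRL cells and 121 ± 3.24 and 165 ± 3.59 CPM in shINCA1 cells. Its response was lower in shINCA1 cells, with a difference of -0.28 ± 0.04 on the log2 scale (edgeR adjusted p = 0.00304). KHDRBS3, a splicing regulator of the STAR family, averaged 24.8 ± 0.235 and 19.4 ± 0.266 CPM in shCTRL cells and 17.7 ± 1.27 and 20.2 ± 1.77 CPM in shINCA1 cells, a difference of 0.54 ± 0.10 (edgeR adjusted p = 0.0146). MBNL2, a muscleblind splicing factor, averaged 78.3 ± 6.38 and 48.5 ± 3.49 CPM in shCTRL cells and 86.0 ± 1.96 and 74.0 ± 6.22 CPM in shINCA1 cells, a difference of 0.47 ± 0.10 (edgeR adjusted p = 0.0416). The MBNL2 call was lost without any of 9 libraries (adjusted p = 0.0693 to 0.0983), with DESeq2 size factors (0.0508) and with no filter (0.0619), whereas those of DDX23 and KHDRBS3 held without each library.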

How the results depend on the processing

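HNRNPF passed the test in both IFNγ comparisons and both comparisons of the lines under every alternative run and without each library. Limma-voom and the replicate block changed the call of none of the 115 gene results followed. These do not take in every member: between the treated lines limma-voom called 27 members, against 26. Deviations from the group means correlated at -0.0358 to 0.0671 between same-numbered samples and at -0.0697 to 0.0506 between others. The labels do not say whether same-numbered samples were handled together, and these values cannot settle it. Under the replicate block 10, 6, 26, 26 and 0 members were called, against 10, 5, 25, 26 and 0. Raised members in shINCA1 cells with IFNγ went from 5 to 3 with DESeq2 size factors, no filter, only the groups compared, upper-quartile scaling or an adjusted p of 0.01. Over all genes 967 raised became 869 (DESeq2 size factors), 842 (no filter), 786 (only the groups compared) and 815 (upper-quartile scaling). Members higher in untreated shINCA1 cells went from 7 to 11 with a filter of 5 CPM in 3 samples. Over all genes that count went from 4314 of 15769 to 3878 of 11342. In shCTRL cells upper-quartile scaling gave 5 raised and 5 lowered members, beside 1201 raised and 1970 lowered of all 15769 tested genes. Without single libraries, raised members numbered 5 to 8 in shCTRL cells (5 without the second treated or the first untreated library), 3 to 5 in shINCA1 cells (3 without the third treated or the third untreated library), and 0 to 1 for the difference of responses (1 without the second untreated shCTRL library). Values near 0 turned sign. The HNRNPH1 response in shINCA1 cells was -0.013 with DESeq2 or its size factors, -0.0093 with the 5 CPM filter, -0.0083 with no filter, -0.028 with upper-quartile scaling and -0.014 to 0.0084 without single libraries. The HNRNPH3 difference of responses was -0.0047 with DESeq2, -0.0042 with its size factors, -0.0020 with the 5 CPM filter, -0.0099 with no filter and -0.018 to 0.053 without single libraries. With upper-quartile scaling that of GRSF1 was 0.013 and that of HNRNPF 0.0040. Without single libraries they spanned -0.042 to 0.030 and -0.034 to 0.013, the GRSF1 response in shINCA1 cells -0.046 to 0.0030 and that of HNRNPH3 in shCTRL cells -0.061 to 0.0061. With the neighbours' median subtracted, the untreated difference of the lines became -0.12 for HNRNPA2B1, 0.073 for HNRNPA3, 0.14 for HNRNPK, 0.29 for HNRNPL, 0.47 for SRSF3, -0.11 for SRSF6 and -0.30 for TRA2A. With IFNγ it became -0.16 for HNRNPA2B1, 0.15 for HNRNPA3, -0.021 for HNRNPAB, 0.0071 for HNRNPK, 0.27 for HNRNPL, 0.48 for SRSF3, -0.32 for SRSF5 and -0.089 for SRSF6. The subtraction, and leaving out the 6 members with uneven libraries, were chosen after seeing the data. The cause of these changes was not tested.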
